A study of Rattus norvegicus with 48 samples.

Results

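miR-135a-5p, miR-135b-5p and the precursor mir-135b were taken by name from the deposited table, 3 of its 1063 names, because the miR-135 family is linked to serotonin signalling and stress resilience. The table held 6 names of the family, and the other 3, mir-135a, miR-135a-3p and miR-135b-3p, are given beside them. Small RNA of Long Evans rats was sequenced at postnatal day 42 from whole amygdala (A) and from ventral striatum (V), in 24 libraries for each region and 48 in all. Dams were injected with ethanol or with saline (control) on gestational day 12. From weaning on day 21 the offspring were housed with littermates (non-enriched, N) or with unfamiliar rats from an untreated dam (socially enriched, S). Each library was a pool of RNA from 3 rats of one sex, and each of the 4 treatments had 3 female (F1 to F3) and 3 male (M1 to M3) pools in each region, 6 in all. Ethanol and control rats therefore shared injection and handling, and a pool hides the spread between its rats.

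A microRNA is cut from a hairpin precursor, and 1 strand of the hairpin, named 5p or 3p after its arm, usually makes up most of the mature product. The bases near the 5′ end, the seed, choose the messenger RNAs that are repressed. miR-135 is known for repressing the serotonin transporter (Slc6a4), which clears serotonin from the synapse, and the Htr1a receptor, which restrains serotonergic firing, and for its links to antidepressant action and resilience to stress. The amygdala handles fear and anxiety, and the ventral striatum handles reward and social motivation.

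The sequences below are those of RefSeq (GRCr8), which matched all 6 family names. They are shown because the products of the 2 genes differ so little that their separate counts depend on a single base. The capitals mark the seed, bases 2 to 8 from the 5′ end.
rno-miR-135a-5p: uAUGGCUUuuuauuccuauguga
rno-miR-135b-5p: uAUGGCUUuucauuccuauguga
rno-miR-135a-3p: uGUAGGGAuggaagccaugaaa
rno-miR-135b-3p: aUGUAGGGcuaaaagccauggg
Both 5p products were 23 bases long, were 95.7% identical and differed by U11C, where the first base is that of miR-135a-5p, the second that of miR-135b-5p and positions are counted from 1 at the 5′ end. They shared their seed with each other and with no other of the 693 rat mature names in the reference. The 3p products have other seeds. The authors write that their counting could not separate the members of some miRNA families, without naming this one. The rule by which reads matching several names were assigned is not given in the sources used here, so a part of the reads of either name may belong to the other.

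The hairpins are less alike, with a longest shared run of 13 bases, and are shown with the 5p arm in capitals.
Mir135a: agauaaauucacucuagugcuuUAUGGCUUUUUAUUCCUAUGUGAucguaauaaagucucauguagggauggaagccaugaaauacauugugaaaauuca
Mir135b: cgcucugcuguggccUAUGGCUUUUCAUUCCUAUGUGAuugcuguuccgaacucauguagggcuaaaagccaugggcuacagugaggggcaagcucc
Mir135a lies on the minus strand at chr7:28499166-28499265 (GRCr8, 100 bases), within the span of the long non-coding gene LOC102548260. Mir135b lies on the plus strand at chr13:46191018-46191114 (97 bases), within the spans of Lemd1 and Blacat1. The reads themselves had been aligned by the authors to an older build, Rn5, and no coordinates of that build were used.

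The values were in reads per 1000000 (RPM) as deposited, where the mature names and the precursor names of a library each add up to 1000000. From the smallest step between values, a library held 363135 to 1370430 reads of mature names, with a median of 977826. All 144 values of the 3 names were whole numbers of reads on this scale, to within 0.02 of a read. There were 23 to 234 reads of miR-135a-5p in a library, 6 to 77 of miR-135b-5p and 7 to 91 of mir-135b. A single read was worth 0.730 to 2.75 RPM of a mature name, so the lowest values carry a large counting error. These counts come from PCR products and were used only to judge the precision.

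Among lists of cell type markers, the one for choroid plexus and ependyma, the secretory and ciliated lining of the ventricles, set some amygdala libraries apart. All 6 of its members were in the table. Their summed level ran from 4061 to 11438 RPM in the ventral striatum, with a median of 7120, and from 3378 to 136669 RPM in the amygdala, with a median of 16549. In 11 amygdala libraries the sum lay between 3378 and 5940 RPM, not above the highest ventral striatum library, and in the other 13 it lay between 14573 and 136669 RPM. These 13 libraries were 3 of control non-enriched, 3 of control enriched, 4 of ethanol non-enriched and 3 of ethanol enriched rats. miR-34b-5p and miR-449a-5p, markers of ciliated cells, were each at 0 in 1 amygdala library, and the other 4 members, led by miR-204-5p, were above 0 in all 48. The neuronal list (miR-124-3p, miR-128-3p and miR-9a-5p) was present throughout, at 26997 to 51087 RPM in the amygdala and 27500 to 53190 RPM in the ventral striatum. The oligodendrocyte list had a median of 6254 RPM in the amygdala and 8849 RPM in the ventral striatum. By limma, 2 of its 2 members were called lower in the amygdala, as was 1 of 4 members of the list for vessels and mesenchyme. Called higher there were 2 of 6 members of the choroid plexus list and 1 of 3 of the neuronal list. Of all 942 names tested between the regions 29.5% were called, 80 higher and 198 lower in the amygdala. Counts this small are not a result about a list. The remaining lists spanned 3989 to 14115 RPM for oligodendrocytes, 175 to 390.1 RPM for microglia and blood cells, 23668 to 64284 RPM for vessels and mesenchyme, 15.6 to 776 RPM for epithelium and 0 to 17.1 RPM for muscle. The 4 treatment contrasts of the amygdala and the differences between regions were also fitted without the 13 libraries, a choice made after the values were seen. The pooled, interaction and sex contrasts were not, and the part of other tissue in them was not tested. The 13 libraries held the 6 amygdala libraries lowest in miR-135b-5p, so its amygdala mean had to rise without them. These fits are a description and no test of a cause.

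miR-135a-5p was the main product of the family. It averaged 112 ± 41.1 RPM (SD, n = 24) in the amygdala, rank 180 of 612 mature names, and 86.7 ± 39.7 RPM (SD, n = 24) in the ventral striatum, rank 192. miR-135b-5p averaged 31.2 ± 13.9 RPM (SD, n = 24) and 34.5 ± 11.2 RPM (SD, n = 24), ranks 243 and 238. miR-135a-5p was the higher of these 2 equally long names in 48 of 48 libraries, by a ratio of 1.02 to 13.6 with a median of 3.01.

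The opposite arms were scarce. miR-135a-3p, the other strand of the miR-135a hairpin, had 6.75 ± 4.32 RPM (SD, n = 48) and was above 0 in 47 libraries. miR-135b-3p was above 0 in 12 of 48 libraries and reached 3.05 RPM at most. The precursor name mir-135b had 32.4 ± 14.3 RPM (SD, n = 24) in the amygdala and 35.96 ± 11.03 RPM (SD, n = 24) in the ventral striatum. It stood at 0.874 to 1.43 times miR-135b-5p in each library, and its values followed those of miR-135b-5p with r = 0.98 over the 48 libraries (log2 scale). mir-135a followed miR-135a-5p in the same way (r = 0.99). Since the small RNA that is counted for a mature name lies within its precursor, mir-135b and miR-135b-5p rest largely on the same reads and are not separate evidence. The 2 mature names were much less alike, with r = 0.43 over the 24 amygdala libraries and r = 0.41 over the 24 ventral striatum libraries, where the points share library size and pool.

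The spread between pools of one sex and treatment was wide for both mature names. For miR-135a-5p this spread had a CV of 36.5% in amygdala libraries and 40.2% in those of ventral striatum, against a counting error of 10.8% and 11.7% at its median number of reads. miR-135b-5p had a CV of 53.6% in the amygdala, where counting gives 21.1%, and of 31.5% in the ventral striatum, where counting gives 16.6%. Ranked by their SD on the log2 scale among all names with a mean of at least 10 RPM, which include far more abundant ones with less counting error, miR-135b-5p was the 23rd most variable of 301 mature names in the amygdala and the 68th of 312 in the ventral striatum. The ranks of miR-135a-5p were 56 and 33. In each case the spread between pools exceeded the counting error. As the replicates are pools, the p-values that follow measure the spread between pools.

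**Figure D1:**
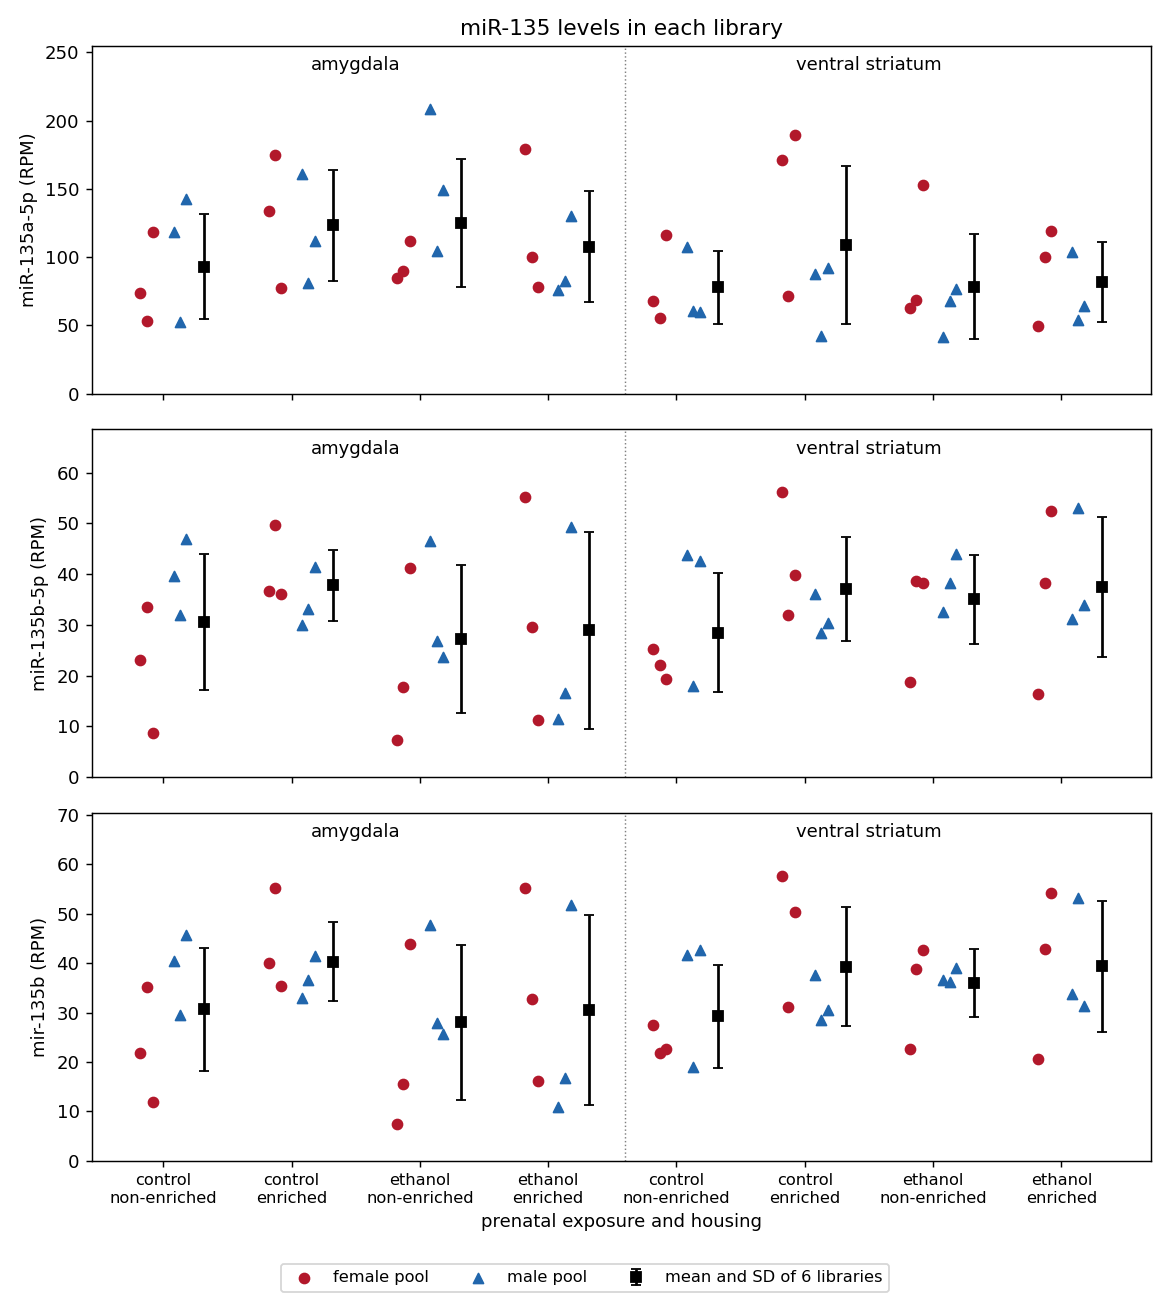
RPM of miR-135a-5p, miR-135b-5p and mir-135b in each library (vertical axes) by region, prenatal exposure and housing (horizontal axis), with female pools as circles, male pools as triangles and squares with bars for the mean and SD of 6 libraries. The groups overlap for every name, and in the amygdala miR-135b-5p spans 7.33 to 55.3 RPM.

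The first question was whether prenatal ethanol changed the family in non-enriched rats [N(EvC)]. In the amygdala, miR-135a-5p in control non-enriched pools was at 73.4, 52.9 and 119 RPM in females and at 118, 52.3 and 143 RPM in males. In ethanol non-enriched pools it was at 84.3, 90.0 and 112 RPM in females and at 209, 105 and 149 RPM in males. The ethanol pools thus reached higher, but their lower values lay within the range of the controls. The means were 93.0 ± 38.5 and 125 ± 47.0 RPM (SD, n = 6 each), a difference in log2(RPM + 1) of 0.46 (SE 0.30, adjusted p = 0.842 in limma).

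miR-135b-5p in the same rats was at 23.1, 33.6 and 8.75 RPM in control females and at 39.6, 31.9 and 47.0 RPM in control males. After ethanol it was at 7.33, 17.7 and 41.3 RPM in females and at 46.5, 26.9 and 23.8 RPM in males. Both groups held very low and rather high pools, and the log2 difference was −0.21 (SE 0.45, adjusted p = 0.932 in limma). mir-135b gave −0.23 (SE 0.42). Of these 12 libraries, 5 were not among the 13 with the high choroid plexus list, 3 of control and 2 of ethanol rats. The 2 ethanol libraries held 112 and 209 RPM of miR-135a-5p. A limma fit to the 11 amygdala libraries outside the 13 had the 4 treatments as groups and sex as a term. It gave a log2 difference of 1.17 (SE 0.54, adjusted p = 0.903) for miR-135a-5p. That of miR-135b-5p changed its sign, to 0.33 (SE 0.32, adjusted p = 0.903). Both the sex term and the SE draw on all libraries of that fit.

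In the ventral striatum, control non-enriched pools had 55.5 to 116 RPM of miR-135a-5p with a median of 64.2, and ethanol non-enriched pools 41.2 to 153 RPM with a median of 68.1. The groups were superimposed, with a log2 difference of −0.04 (SE 0.34, adjusted p = 1.0 in limma). miR-135b-5p ran from 17.9 to 43.8 RPM with a median of 23.7 in controls and from 18.8 to 44.04 RPM with a median of 38.2 after ethanol, a log2 difference of 0.33 (SE 0.28). mir-135b differed by 0.34 (SE 0.25).

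The second comparison was the effect of ethanol in socially enriched rats [S(EvC)]. In the amygdala, miR-135b-5p in control enriched pools was at 36.6, 49.7 and 36.1 RPM in females and at 29.97, 33.1 and 41.5 RPM in males, the narrowest of the 8 groups. Ethanol enriched pools split, with 55.3, 29.7 and 11.3 RPM in females and 11.5, 16.5 and 49.3 RPM in males. The log2 difference was −0.63 (SE 0.45, adjusted p = 1.0 in limma), the lowest of the 24 treatment results, and its 95% interval ran from −1.57 to 0.32. The 3 pools at 11.3, 11.5 and 16.5 RPM were all among the 13 with the high choroid plexus list, and without those 13 libraries the log2 difference was 0.15 (SE 0.29, adjusted p = 1.0 in limma).

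miR-135a-5p in these enriched amygdala pools ran from 77.0 to 175 RPM with a median of 123 in controls and from 75.6 to 179 RPM with a median of 91.2 after ethanol, a log2 difference of −0.20 (SE 0.30). Without the 13 libraries this difference turned to 0.36 (SE 0.48, adjusted p = 1.0 in limma). Its ventral striatum values ran from 41.9 to 189 RPM with a median of 89.9 in controls and from 49.3 to 119 RPM with a median of 82.2 after ethanol (−0.31, SE 0.34). miR-135b-5p there differed by −0.04 (SE 0.28), between means of 37.1 ± 10.2 and 37.5 ± 13.9 RPM (SD, n = 6 each). All of these groups overlapped.

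The remaining comparisons concerned social enrichment, in control rats [C(SvN)] and in ethanol-exposed rats [E(SvN)]. In controls the 3 names had higher means with enrichment in both regions. In the amygdala, the log2 difference was 0.44 (SE 0.30) for miR-135a-5p, 0.44 (SE 0.45) for miR-135b-5p and 0.48 (SE 0.42) for mir-135b. Without the 13 libraries these were 0.63 (SE 0.50), 0.17 (SE 0.30) and 0.26 (SE 0.30). For the ventral striatum, it was 0.37 (SE 0.34), 0.42 (SE 0.28) and 0.44 (SE 0.25), and each of these 6 differences over all libraries had an adjusted p of 1.0 in limma. The estimates in ethanol-exposed rats were −0.21 (SE 0.30), 0.02 (SE 0.45) and 0.10 (SE 0.42) in the amygdala, and 0.10 (SE 0.34), 0.05 (SE 0.28) and 0.08 (SE 0.25) in the ventral striatum. The difference between the effects of enrichment in the 2 exposures was itself tested, and for miR-135a-5p it was −0.65 (SE 0.43, adjusted p = 1.0 in limma) in the amygdala and −0.27 (SE 0.48, adjusted p = 1.0) in the ventral striatum. N(EvC) and C(SvN) share the control non-enriched pools, so these contrasts are not independent.

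Over these 4 contrasts in both regions, 0 of the 24 results of the 3 names had an adjusted p under 0.05 in limma and 0 had an unadjusted p under 0.05. Among all names tested, too, 0% were called after adjustment in each of the 8 contrasts. Unadjusted, 4.51% of 910 names in the amygdala were under 0.05 for N(EvC), 3.85% for S(EvC), 2.64% for C(SvN) and 2.64% for E(SvN). Of 933 names in the ventral striatum the shares were 2.04%, 2.25%, 3.86% and 1.82%. Two-sided exact permutation tests on the mean RPM, 6 libraries against 6, gave p of 0.149 to 1.0 over the same 24 comparisons, where 0.00216 is the smallest such a test can reach. The half-widths of the 95% intervals were 0.54 to 0.94 on the log2 scale. These intervals are unadjusted, whereas calls were adjusted over 910 or 933 names. Changes of that size or smaller, and larger ones too, could be missed in these pools. The results do not show that the levels were equal.

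**Figure D2:**
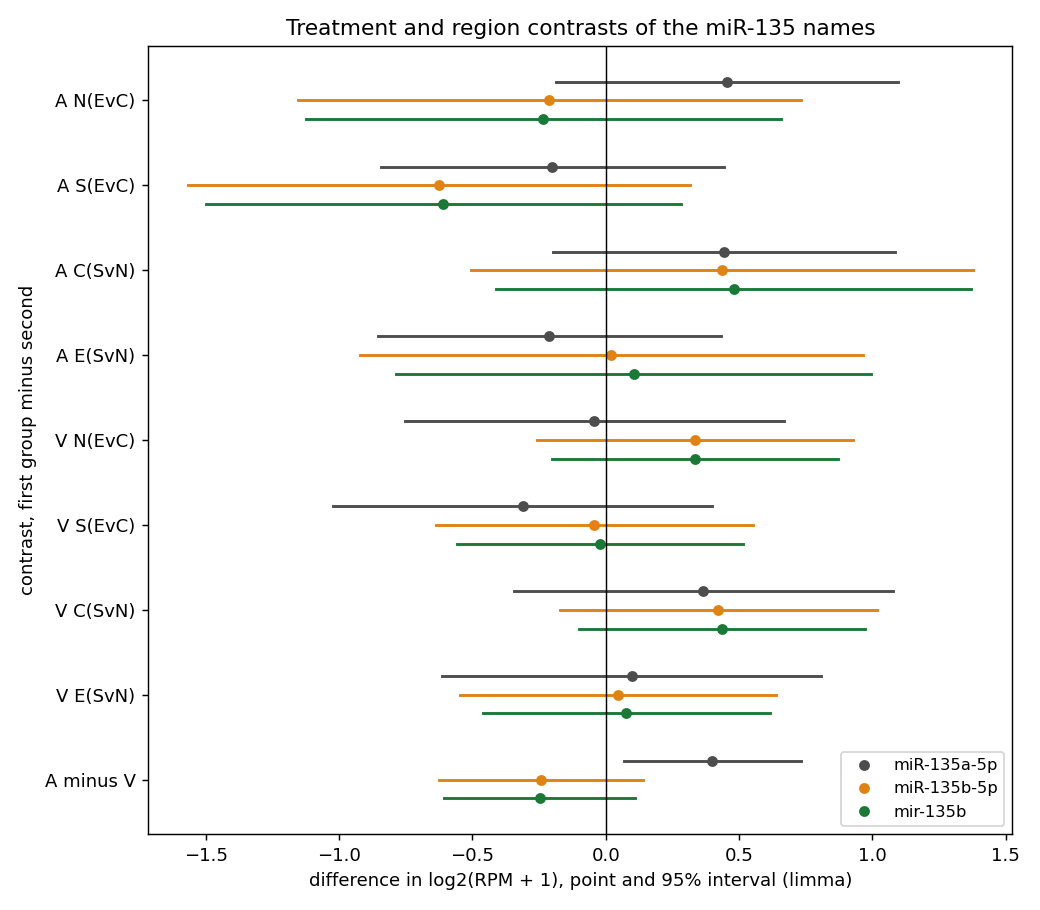
Differences in log2(RPM + 1) (horizontal axis, points with 95% intervals from limma) of the 3 names in the 4 treatment contrasts of each region and between the regions (vertical axis). All 24 treatment intervals include 0, and of the 3 region intervals only that of miR-135a-5p, 0.07 to 0.73, does not.

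Contrasts pooled over groups were also tested. The effect of ethanol over both housings in the amygdala was 0.13 (SE 0.22) for miR-135a-5p and −0.42 (SE 0.32, adjusted p = 0.848 in limma) for miR-135b-5p. The ventral striatum gave −0.18 (SE 0.24) and 0.15 (SE 0.20). The effect of enrichment over both exposures was 0.12 (SE 0.22) and 0.23 (SE 0.32) in the amygdala and 0.23 (SE 0.24) and 0.23 (SE 0.20) in the ventral striatum. Of the 3 names, females and males differed most for miR-135a-5p in the ventral striatum, where females ran from 49.3 to 189 RPM with a mean of 102 ± 47.8 (SD, n = 12) and males from 41.2 to 107 RPM with a mean of 71.4 ± 22.3 (SD, n = 12). The log2 difference was 0.43 (SE 0.24, adjusted p = 1.0 in limma), and a permutation test on mean RPM gave p = 0.0568. In the amygdala, females were at 106 ± 39.7 and males at 118 ± 43.4 RPM (SD, n = 12 each). No name of the family was called in the pooled, interaction or sex contrasts of either region, and neither was any other name tested (0%).

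The regions themselves differed in many miRNAs. Over all 942 names tested, 29.5% had an adjusted p under 0.05 in limma, 80 names higher and 198 lower in the amygdala. miR-135a-5p ran from 52.3 to 209 RPM in the amygdala with a median of 108, and from 41.2 to 189 RPM in the ventral striatum with a median of 69.95. Its log2 difference was 0.40 (SE 0.16, 95% interval 0.07 to 0.73, adjusted p = 0.0627), so it did not pass, and a permutation test on mean RPM gave p = 0.0344 with no adjustment. After rescaling the libraries by median ratios, the difference was 0.47 (SE 0.15, adjusted p = 0.0222 in limma), which passes. The median difference of all names was −0.08. Both regions were dissected from the same 72 rats, yet the tests above treated the 48 libraries as independent. The labels do not say which libraries hold the same rats. Libraries with consecutive numbers share sex and treatment, and as a random block these pairs gave 0.40 (SE 0.16, adjusted p = 0.0543 in limma). The amygdala library was the higher in miR-135a-5p in 16 of these 24 pairs. In tissue pools, fewer cells that hold a miRNA and less of it in each cell cannot be told apart. The precursor name mir-135a, which rests largely on the same reads, differed by 0.43 (SE 0.16, adjusted p = 0.0432 in limma) and so lay on the other side of the threshold. miR-135a-3p differed by 0.49 (SE 0.22, adjusted p = 0.0877).

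miR-135b-5p pointed the other way. Its amygdala and ventral striatum levels overlapped over nearly their whole range, with medians of 32.5 and 34.99 RPM, and the log2 difference was −0.24 (SE 0.19, adjusted p = 0.352 in limma). mir-135b differed by −0.25 (SE 0.18, adjusted p = 0.313). The amygdala library was the higher in 10 of 24 pairs for either name. With the 11 amygdala libraries alone, the sign turned for both, to 0.29 (SE 0.17, adjusted p = 0.229 in limma) for miR-135b-5p and 0.27 (SE 0.15, adjusted p = 0.218) for mir-135b. miR-135a-5p was at 0.45 (SE 0.22, adjusted p = 0.154). The libraries left out held the 6 amygdala libraries lowest in miR-135b-5p, so its amygdala mean had to rise. In those kept, the choroid plexus list (3378 to 5940 RPM) lay below the ventral striatum median of 7120 RPM. The turn is therefore not a test of the difference between regions.

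Within the treatments, the difference of miR-135a-5p between regions was 0.21 (SE 0.33) in control non-enriched, 0.29 (SE 0.33) in control enriched, 0.71 (SE 0.33, adjusted p = 0.177 in limma) in ethanol non-enriched and 0.40 (SE 0.33) in ethanol enriched rats. In ethanol non-enriched rats the median of all names was −0.14. miR-135b-5p was at 0.03 and 0.05 (SE 0.38 each) in the control groups and at −0.51 and −0.54 (SE 0.38 each) in the ethanol groups. Without the 13 libraries both of these ethanol values turned, to 0.36 (SE 0.37) in non-enriched and 0.32 (SE 0.32) in enriched rats, and the control values were 0.35 and 0.13 (SE 0.32 each). miR-135a-5p then was at −0.065 (SE 0.42) in control non-enriched, 0.056 (SE 0.42) in control enriched, 1.07 (SE 0.48) in ethanol non-enriched and 0.73 (SE 0.42) in ethanol enriched rats. The amygdala libraries left in these groups were only 3, 3, 2 and 3, in the same order. The difference of the ethanol effects between regions was tested and was −0.56 (SE 0.38, adjusted p = 1.0 in limma) for miR-135b-5p and 0.30 (SE 0.33, adjusted p = 1.0) for miR-135a-5p. None of the 3 names was called in these contrasts. Among all names 5.2% were called in control non-enriched, 0.425% in control enriched, 7.01% in ethanol non-enriched and 6.16% in ethanol enriched rats, 0.212% for the difference in ethanol effects and 0% for that in enrichment effects.

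Ordered by mean level, miR-135a-5p was at 125 RPM in the amygdala of ethanol non-enriched and 123 RPM of control enriched rats. There followed 109 RPM in the ventral striatum of control enriched rats and 108 and 93.0 RPM in the amygdala of ethanol enriched and control non-enriched rats. The lowest were 81.8, 78.3 and 77.8 RPM in the ventral striatum of ethanol enriched, ethanol non-enriched and control non-enriched rats. For miR-135b-5p the order ran from 37.8 RPM in the amygdala of control enriched to 27.2 RPM in the amygdala of ethanol non-enriched rats. Neighbours in either order differed by less than the SD of each of them.

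The most marked variation of miR-135b-5p lay within the amygdala and moved with the choroid plexus list. In the 11 libraries with the list at 3378 to 5940 RPM, miR-135b-5p ran from 29.7 to 55.3 RPM, with a mean of 40.5 ± 8.56 (SD, n = 11). In the 13 with the list above the ventral striatum, it ran from 7.33 to 47.0 RPM, with a mean of 23.2 ± 12.8 (SD, n = 13). The 6 amygdala libraries lowest in miR-135b-5p were 6 of these 13. mir-135b had 42.2 ± 9.22 and 24.1 ± 12.6 RPM in the same 2 sets.

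miR-135a-5p showed no such division. It had 117 ± 52.3 RPM (SD, n = 11) in the first set, from 52.3 to 209 RPM, and 108 ± 30.5 RPM (SD, n = 13) in the second, from 73.4 to 161 RPM. Across the 24 amygdala libraries, the correlation with the summed list (log2 scale) was −0.63 for miR-135b-5p and 0.04 for miR-135a-5p. In the ventral striatum, where the list spans a narrow range, it was 0.33 for each. Other lists went with miR-135b-5p in the amygdala too, with r = −0.44 for epithelium, −0.43 for oligodendrocytes, −0.36 for muscle and 0.31 for vessels and mesenchyme. In the ventral striatum these were 0.20, 0.19, 0.54 and 0.26, in the same order, so 3 of them had the other sign. The muscle list reached only 17.1 RPM and rests on a few reads. Between the 2 amygdala sets, the vessel list had medians of 32911 and 28365 RPM. The epithelial list had medians of 35.1 and 40.3 RPM, with highest values of 75.4 and 776 RPM. The neuronal list had medians of 41794 and 41349 RPM, and the mature reads had medians of 795418 and 952744. The sets were divided by a measured list, so these values are a description and were not tested.

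**Figure D3:**
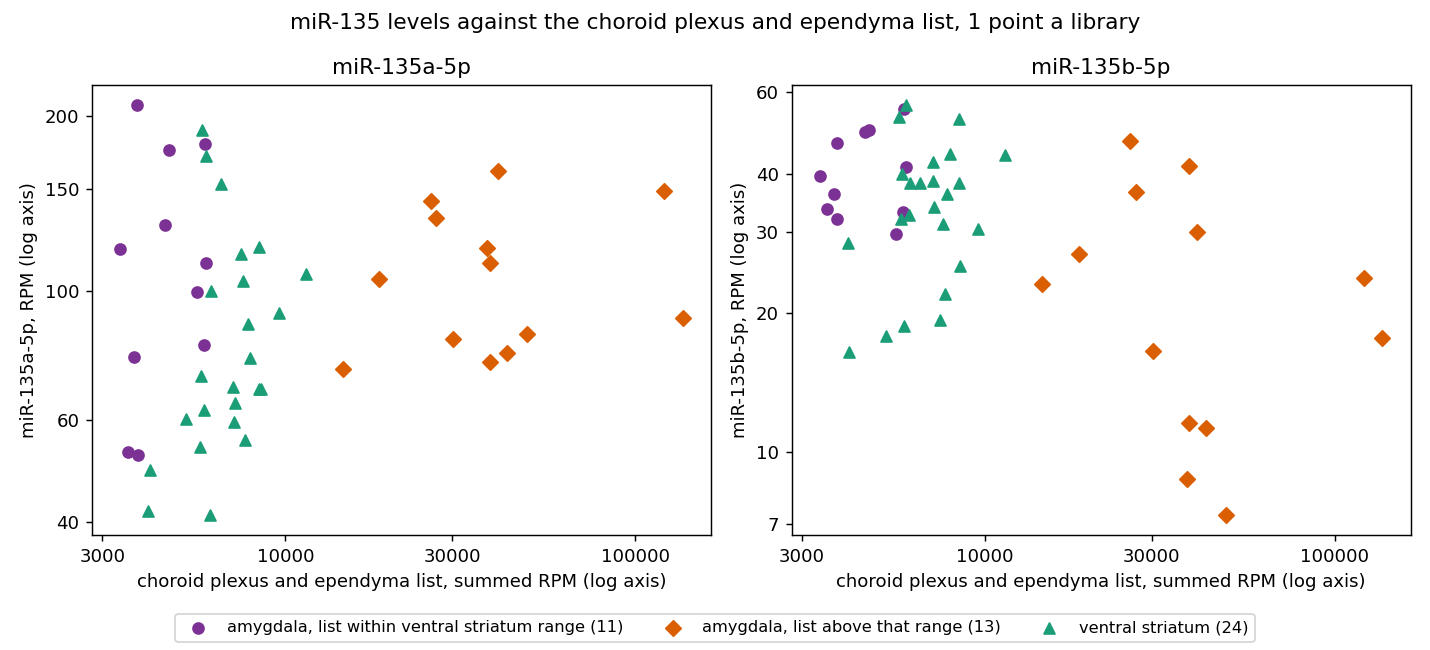
RPM of miR-135a-5p (left) and miR-135b-5p (right) against the summed RPM of the choroid plexus and ependyma list, with 1 point for each of 48 libraries and log axes throughout. In the amygdala, miR-135b-5p under 20 RPM occurs only among the 13 libraries with the list at 14573 RPM or more (diamonds), while miR-135a-5p spreads over like ranges.

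The ratio of miR-135a-5p to miR-135b-5p ran from 1.58 to 13.6 in the amygdala with a median of 3.44, and from 1.02 to 6 in the ventral striatum with a median of 2.48. Its mean on the log2 scale was 1.94 ± 0.77 and 1.28 ± 0.61 (SD, n = 24 each), a difference of 0.66. The amygdala library was the higher in 20 of 24 consecutive pairs. With the 11 amygdala libraries alone, the difference was 0.14. The ratio was 2.79 ± 0.86 (SD, n = 11) in these and 5.90 ± 3.27 (SD, n = 13) in the others. In the ventral striatum it was 3.19 ± 1.20 in females and 2.10 ± 0.81 in males (SD, n = 12 each). The ratio is given as a description, with no test.

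**Figure D4:**
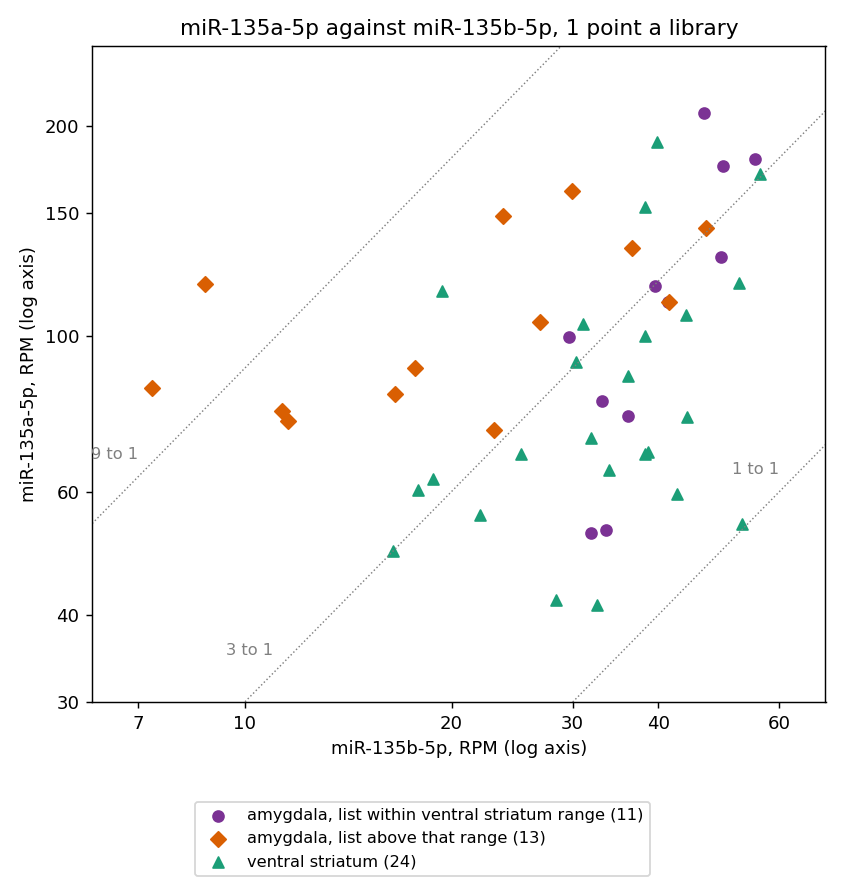
miR-135a-5p against miR-135b-5p in RPM on log axes, 1 point a library, with dotted lines at ratios of 1, 3 and 9 to 1. Amygdala libraries with the low choroid plexus list (circles) lie among those of the ventral striatum (triangles), and the amygdala libraries with the high list (diamonds) extend to ratios of up to 13.6.

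The miRNAs whose levels were most like those of the family were sought among 305 mature names with a mean of at least 10 RPM, by Pearson's r on the log2 scale. For miR-135b-5p, the first 3 over the 48 libraries were miR-412-5p (r = 0.78), miR-129-2-3p (r = 0.77) and miR-326-3p (r = 0.64). The same 3 led after the mean of each of the 16 groups of region, sex and treatment had been subtracted (r = 0.78, 0.75 and 0.68). For miR-135a-5p, the first 3 over the 48 libraries were miR-770-5p (r = 0.69), miR-125b-2-3p (r = 0.67) and miR-330-3p (r = 0.61). After the subtraction they were miR-330-3p (r = 0.75), miR-134-5p (r = 0.74) and miR-376b-3p (r = 0.72). None of these names was among the first 3 of both members. The points share pools and library scaling, and the correlations are a description.

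Other miRNAs linked to serotonin, stress hormone receptors or fear were followed as a list of 17, of which 16 were tested. In the 4 treatment contrasts of both regions 0 of the 16 had an adjusted p under 0.05 in limma, and in the contrasts N(EvC), S(EvC), C(SvN) and E(SvN) of the amygdala 1, 2, 1 and 0 had an unadjusted p under 0.05, beside 4.51%, 3.85%, 2.64% and 2.64% of all 910 names. In the ventral striatum this number was 0 in each. Counts this low in a list of 16 are not a result about the list. miR-16-5p, which also represses the serotonin transporter, was far more abundant than miR-135 and steady between pools, at 5597 ± 658 RPM in amygdala libraries and 6748 ± 731 RPM in those of ventral striatum (SD, n = 24 each). Its N(EvC) was −0.02 (SE 0.10) in amygdala libraries and 0.01 (SE 0.10) in those of ventral striatum. Between the regions, 6 of the 16 were called, 2 higher in the amygdala and 4 lower, a share near the 29.5% of all names, with a median log2 difference of −0.19 beside −0.08 for all 942 names.

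Of these, miR-16-5p fell by 0.27 on the log2 scale in the amygdala against the ventral striatum (SE 0.05, adjusted p = 0.000104 in limma) and miR-34a-5p, which targets a CRF receptor, fell by 0.78 (SE 0.14). miR-19b-3p fell by 0.29 (SE 0.07) and miR-18a-5p, which targets the glucocorticoid receptor, by 0.63 (SE 0.24). miR-18a-5p averaged only 2.15 RPM in the amygdala and 3.28 RPM in the ventral striatum, with a lowest value of 0 in each. Its difference therefore rests on a few reads, on zeros and on the pseudocount. The neuronal miR-218a-5p rose by 0.50 (SE 0.10) and miR-128-3p by 0.41 (SE 0.12). miR-132-3p, miR-34c-5p and miR-96-5p had an unadjusted p under 0.05 only, with log2 differences of −0.30, 1.42 and −0.75. miR-34c-5p belongs to the choroid plexus list as well. In the amygdala, the names under 0.05 before adjustment were miR-96-5p for N(EvC) (−1.06, SE 0.43), miR-195-5p and miR-218a-5p for S(EvC) (0.31, SE 0.12, and 0.45, SE 0.15) and miR-218a-5p for C(SvN) (−0.38, SE 0.15), all with an adjusted p of at least 0.842 in limma. miR-96-5p averaged 0.905 RPM in the amygdala, where 1 read was worth 0.777 to 2.75 RPM, so its difference rests on a few reads, on zeros and on the pseudocount. The difference of the enrichment effects between exposures had an unadjusted p under 0.05 for miR-195-5p (0.45, SE 0.18) and miR-218a-5p (0.62, SE 0.22) in the amygdala and for miR-182 (2.45, SE 1.13) in the ventral striatum, each with an adjusted p of at least 0.957 in limma. Over the pooled groups of the amygdala this held for miR-96-5p with ethanol (−0.64, SE 0.30, adjusted p = 0.848 in limma) and for miR-15b-5p with enrichment (−0.29, SE 0.13, adjusted p = 1.0).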

How the data were processed

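Small RNA was sequenced by the authors, who aligned the reads to Rn5 and counted them with miRBase 21 names. The submitters' processing notes name Partek and Bowtie. The deposited signal is reads per 1000000 of mature and of precursor names, with no raw counts, and the authors write that their counting could not separate members of some miRNA families. The rule for reads matching several names is not given in the sources used here. Names on several lines were joined. The analysis used log2(RPM + 1) of names above 0 in at least 6 of 24 libraries, 910 for amygdala, 933 for ventral striatum and 942 for both regions, in limma 3.58.1 (R 4.3.3) with Benjamini-Hochberg adjustment over all names tested, and cells of sex and treatment as groups. Permutation tests on RPM were two-sided, exact for 6 against 6 and with 100000 resamples otherwise (Python 3.11.15, numpy 2.4.6, pandas 2.3.3, scipy 1.17.1, matplotlib 3.10.9). Scripts were tested on simulated data. Named besides the 3 members were the other family names, the 3 names most like miR-135a-5p and miR-135b-5p by each measure, listed serotonin and stress miRNAs with an unadjusted p under 0.05, and miR-16-5p. Members and lists were chosen with earlier results of these data known. Alternatives were other pseudocounts (0.1 and 10), filters, rescaling, unlogged values, 1 kind of name, only the libraries compared, blocks, and leaving out each library. Restriction by the choroid plexus list and the alternatives for the ratio were added after seeing the data. Library sizes were recovered from the most frequent low value of each library. The 95% intervals are those of limma and rest on the spread between pools, which includes counting error.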

Additional observations from a re-analysis of the deposited data

Results flagged for a closer look

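In the 48 sets of 6 libraries examined (6 quantities in 8 groups of region and treatment), 5 held a highest or lowest value whose gap to the next was large against the range of the set. Chance gives such a gap in about 1 of 20 sets of independent, normally distributed values, which RPM values and ratios need not be. Some of the sets also share reads, so the number of flags cannot be set against that rate. In the ventral striatum of ethanol non-enriched rats, female pool 3 had 153 RPM of miR-135a-5p, where the next library had 76.8 RPM, and 141 RPM of mir-135a, where the next had 78.9 RPM. These names rest largely on the same reads. Female pool 1 of that group had 22.7 RPM of mir-135b, and the next lowest had 36.2 RPM. In the amygdala of ethanol enriched rats, male pool 2 had 24.8 RPM of miR-135a-3p against 10.8 RPM in the next. A single read was worth 2.75 RPM in the former and 2.70 RPM in the latter, so both values rest on a few reads. In the amygdala of control non-enriched rats, the ratio of miR-135a-5p to miR-135b-5p was 13.6 in female pool 3 and 3.18 in the next library. The ratio of 13.6 rests on 7 reads of miR-135b-5p. The cause of these gaps was not tested.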

How the results depend on the processing

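Of the results without an adjusted p under 0.05, the difference of miR-135a-5p between regions alone crossed that threshold: at 0.40 among names with a mean of at least 10 RPM (adjusted p = 0.0416 in limma), at 0.47 after median-ratio rescaling (adjusted p = 0.0222) and at 0.40 with the replicate block (adjusted p = 0.0386). Whether label numbers pair the libraries could not be decided, since no share for unpaired libraries is given beside the counts. In each region 14 of 36 same-numbered pairs correlated above 0.1. Their r ran from −0.75 to 0.70 among amygdala libraries, with a median of −0.055, and from −0.64 to 0.54 among those of ventral striatum, with a median of 0.029. Of the pairs with consecutive library numbers, 11 of 24 correlated above 0.1, with a median r of 0.046. The correlation that limma estimated within these pairs was 0.054. These medians and this estimate lay near 0. The replicate block changed no other call. Leaving out 1 library gave 0.35 to 0.45 (adjusted p = 0.0307 to 0.0986), with 12 libraries whose omission brought it past the threshold: ventral striatum F3 of all 4 treatments and M1 of control non-enriched and ethanol enriched, and amygdala control non-enriched F2 and M2, control enriched F3 and M2, ethanol enriched F3 and ethanol non-enriched M2.

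Of the 69 results of miR-135a-5p, miR-135b-5p and mir-135b, 0 had an adjusted p under 0.05 in limma. Whether a result that passed would keep its sign could therefore not be seen. Signs turned for the following results. After median-ratio rescaling these were E(SvN) of miR-135b-5p in the amygdala (−0.042), S(EvC) of mir-135b in the ventral striatum (0.0042) and the difference of SvN between regions of mir-135b (−0.0052). On unlogged RPM, in percent of the mean, they were, in the ventral striatum, N(EvC) of miR-135a-5p (0.629), S(EvC) of miR-135b-5p (1.05) and of mir-135b (0.059) and females minus males of mir-135b (0.638), and the difference of SvN between regions of mir-135b (−1.88). With the 11 amygdala libraries, a setting chosen after seeing the data, 14 of 28 results turned: N(EvC) of miR-135b-5p (0.33) and mir-135b (0.39), S(EvC) of miR-135a-5p (0.36), miR-135b-5p (0.15) and mir-135b (0.13), E(SvN) of miR-135b-5p (−0.011) and mir-135b (−0.0080), and the region differences of miR-135b-5p (0.29) and mir-135b (0.27), of miR-135a-5p in control non-enriched rats (−0.065), of miR-135b-5p and mir-135b in ethanol non-enriched (0.36 and 0.37) and in ethanol enriched rats (0.32 and 0.28). The libraries left out held the 6 amygdala libraries lowest in miR-135b-5p, so its amygdala mean had to rise in this setting. The cause was not tested.

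Leaving out 1 library also turned the sign of 17 results. In the amygdala the ranges, for miR-135b-5p and then mir-135b, were −0.50 to 0.081 and −0.56 to 0.047 for N(EvC) and −0.27 to 0.31 and −0.21 to 0.43 for E(SvN). Between regions they were −0.17 to 0.29 and −0.17 to 0.21 in control non-enriched rats, −0.047 to 0.15 and −0.064 to 0.15 in control enriched rats, and −0.15 to 0.14 and −0.12 to 0.20 for the difference of SvN. In the ventral striatum they were −0.21 to 0.19 and −0.16 to 0.18 for S(EvC) and −0.13 to 0.28 and −0.064 to 0.28 for E(SvN), and for miR-135a-5p −0.038 to 0.30 for E(SvN) and −0.24 to 0.11 for N(EvC). Females minus males of mir-135b there ran from −0.14 to 0.056. The block could not be fitted to sex, in which the numbers are nested. The low reads of miR-135b-5p, 6 in the lowest library, limit what these pools can show.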
